A study of Mus musculus with 64 samples.

Results

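Long H3K9me3 domains were defined as stretches of autosomal DNA that lay in H3K9me3 peaks in at least 3 of the 4 libraries made 24 h after stimulation. Covered bases within 2 kb of each other were merged, and merged stretches of 30 kb or longer were kept. This gave 460 domains, out of 22648 merged autosomal regions of any length. The domains held 18.3 Mb of the 190 Mb in those regions and 0.745% of the autosomes. The H3K9me3 lists of 24 h therefore chose the members, and their 24 h values are given as a description, with no test.

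The cells were CD23+ B cells from the spleens of female F1 mus x cast mice. The mothers were C57BL/6 with a heterozygous Xist deletion and the fathers were M. m. castaneus, and every group came from this cross. Cells were unstimulated (0 h) or received 1 µM CpG, DNA that activates the receptor TLR9, for 12 or 24 h. In CUT&RUN an antibody directs a nuclease to chromatin, and the released fragments are sequenced. H3K9me3, H3K27ac, Suz12 and Ring1B had 4, 3, 3 and 3 libraries at 0 h and the same numbers at 12 and 24 h. H3K27me3 had 3, 3 and 4 libraries, and H2AK119Ub had 4, 3 and 5. The labels call the libraries biological replicates and do not give the age of the mice or say whether animals were pooled. The peak lists carry the name Cast and were read as peaks of the Cast allele.

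H3K9me3 is a histone mark of silent chromatin. It is laid down by methyltransferases such as Setdb1 and the Suv39h enzymes and is bound by HP1 proteins, and it covers repeats, gene-poor DNA and some clustered gene families. H3K27me3 and H2AK119Ub mark a different form of silencing, made by Polycomb complexes that contain Suz12 and Ring1B respectively. H3K27ac marks active promoters and enhancers.

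Autosomal H3K9me3 peaks numbered 1772 to 8866 in the lists of 0 h. They numbered 18973 to 23445 in those of 12 h and 23851 to 32088 in those of 24 h. Read depth is unknown, so a difference in list length cannot be told apart from a difference in depth. No 2 lists were identical in 285 pairs compared. H3K27ac peaks were present in all 9 H3K27ac libraries at 8 of 13 B cell marker genes, including Cd79a and Pax5, and at 0 of 10 T cell and 0 of 10 myeloid markers. Of 10 erythroid and stromal markers 1, Pecam1, had a peak in all 9. Some libraries had a peak at other markers, 8 of 9 at the T cell genes Cd3d and Lck and 6 of 9 at the macrophage gene Adgre1, and the part of other cells in the results was not tested.

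Promoters of 4 genes are printed to show the range of CpG content, since most promoters in the domains had few CpG and a few had many. Each run is the 250 bases before a transcript start listed by RefSeq (GRCm38.p6, the same assembly as mm10), 5′ to 3′ on the gene's strand, with each CpG in capitals. It is the C57BL/6 reference sequence, not the Cast sequence. For Olfr1109 and Ano5 this start lies inside the whole annotated span of the gene. The windows are chr2:87093396-87093645 (minus strand) for the olfactory receptor gene Olfr1109, chr7:86336395-86336644 (minus) for the olfactory receptor gene Olfr307, chr8:63952171-63952420 (minus) for Sgo2b and chr7:51510779-51511028 (plus) for Ano5.
Olfr1109: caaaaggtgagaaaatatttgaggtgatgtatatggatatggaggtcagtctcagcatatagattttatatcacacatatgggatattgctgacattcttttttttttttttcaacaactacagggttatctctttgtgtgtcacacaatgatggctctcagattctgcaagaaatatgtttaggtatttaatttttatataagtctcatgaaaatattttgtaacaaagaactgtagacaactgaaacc
Olfr307: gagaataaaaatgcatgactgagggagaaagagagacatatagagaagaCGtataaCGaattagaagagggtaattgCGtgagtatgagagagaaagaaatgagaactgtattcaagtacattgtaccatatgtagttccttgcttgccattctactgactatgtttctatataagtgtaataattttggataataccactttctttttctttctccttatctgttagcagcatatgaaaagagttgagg
Sgo2b: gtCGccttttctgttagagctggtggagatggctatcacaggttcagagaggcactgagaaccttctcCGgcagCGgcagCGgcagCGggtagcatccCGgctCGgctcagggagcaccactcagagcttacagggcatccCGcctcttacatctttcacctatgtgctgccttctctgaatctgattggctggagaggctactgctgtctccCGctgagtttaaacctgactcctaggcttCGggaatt
Ano5: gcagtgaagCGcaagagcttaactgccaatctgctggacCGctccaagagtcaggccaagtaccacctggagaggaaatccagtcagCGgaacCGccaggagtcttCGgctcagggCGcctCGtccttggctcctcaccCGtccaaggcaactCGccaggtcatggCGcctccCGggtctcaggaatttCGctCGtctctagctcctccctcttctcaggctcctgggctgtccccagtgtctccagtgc
The Olfr1109 window has 0 CpG and a GC content of 31.2%, and Olfr307 has 3 CpG and 34.4%. Both windows were fully covered by H3K9me3 peaks in all 8 libraries of 0 and 12 h. Sgo2b, a shugoshin family gene, has 10 CpG and a GC content of 56.4%, and its window was fully covered in 0 of 4 libraries at 0 h and 3 of 4 at 12 h. Ano5, which codes for an anoctamin membrane protein, has 13 CpG and 61.6%, with full cover in 1 of 4 libraries at each of these times. In all, 55 promoter windows of 52 genes lay in domains, whether or not the rest of the gene did. For these windows the median was 1 CpG and a GC content of 36.4%, against 6 and 52.4% over all 31396 autosomal windows. No CpG was present in 34.5% of the windows in domains and in 7.64% of all windows. Windows in shorter H3K9me3 regions of 5 to 30 kb were close to those in domains, with a median of 1 CpG, a GC content of 41.2% and 30.1% without a CpG. A match to CG is a description of the sequence and says nothing of methylation.

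The domains were 30.0 to 102.4 kb long with a median of 36.3 kb, and 64 were 50 kb or longer. The longest, chr10:113416436-113518809, overlapped no protein-coding gene, and the nearest, Atxn7l3b, lay 487 kb away. The 3 shortest members measured 30.01, 30.03 and 30.07 kb, and the 3 longest regions left out measured 29.93, 29.94 and 30.00 kb, so the length threshold separates regions that hardly differ.

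Domains lay on 18 of the 19 autosomes and in unequal numbers. Chromosome 1 had 82, chromosome 3 had 57, chromosome 6 had 43 and chromosome 10 had 37, while chromosomes 9 and 11 had 1 each and chromosome 19 had 0. The share of a chromosome in domains was 1.66% on chromosome 1, 1.42% on chromosome 3 and 1.39% on chromosome 16. Over the 19 chromosomes this share rose with the share in any 24 h H3K9me3 region (Spearman's rho 0.84) and was lower where protein-coding genes were denser (rho -0.38). These coefficients describe chromosomes that share libraries and, for the first, bases.

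**Figure D1:**
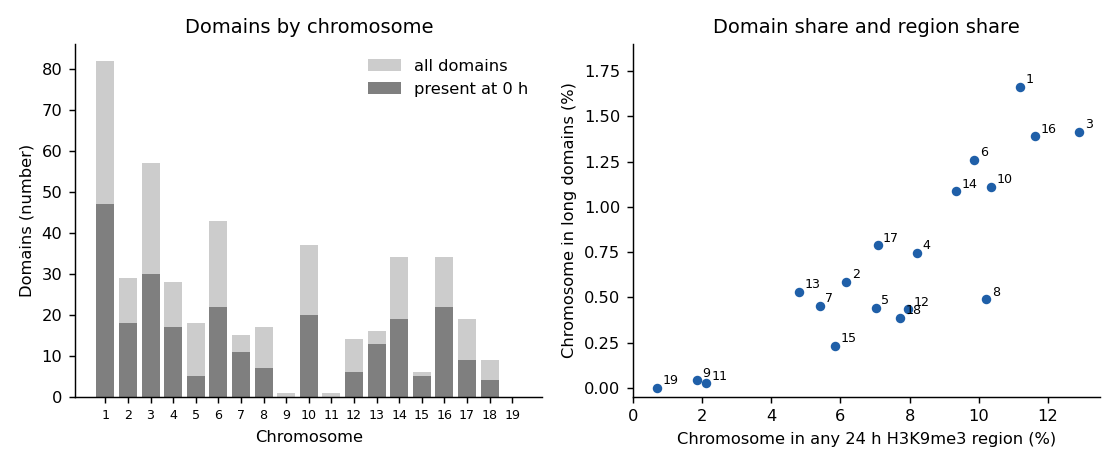
Left, number of domains per autosome (pale bars) and the number present at 0 h (dark bars). Right, percent of each autosome in domains against percent in any 24 h H3K9me3 region, 1 point per autosome: chromosomes 9, 11 and 19 sit at the lower left and chromosomes 1, 3 and 16 at the upper right.

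Domains occurred in groups. Joined across gaps of up to 1 Mb they formed 151 groups, and the 26 groups of 5 or more domains held 231 domains, or 50.2%. The regions of 5 to 30 kb were not grouped in this way, so whether grouping is particular to domains was not tested. The largest group spanned 8.88 Mb of chromosome 1 from 108.5 to 117.3 Mb and held 32 domains. The span holds 4 protein-coding genes, Cdh7 and Cdh19 (cadherins), Cntnap5a (a contactin-associated protein) and Dsel. The span of a group of 21 domains on chromosome 14 holds Slitrk1, Slitrk5 and Slitrk6, which code for neuronal membrane proteins, and that of 15 domains on chromosome 1 holds Brinp3. The span of a group of 11 on chromosome 13 holds none.

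Most domains lay away from protein-coding genes. Of the 460, 375 overlapped none, and for these the median distance to the nearest was 477 kb. A protein-coding gene was overlapped by 18.5% of domains, by 22.2% of the 13445 regions of 5 to 30 kb and by 55.0% of all 40 kb windows of the autosomes. The median number of protein-coding genes within 250 kb was 0, 1 and 3 in the same order.

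In 66 domains a protein-coding gene spanned at least 50% of the domain (its host), and 60 domains lay wholly inside 1 gene. The 42 host genes included Skint5 with 5 domains, Ptprd (a receptor phosphatase) with 4, and Cntn6, Lrrc4c, Cadm2 and Ppfia2 with 3 each. Skint5, of a family of genes expressed in skin and thymus epithelium, had a mean H3K9me3 cover of its domains of 87.3% at 0 h and 94.2% at 12 h, averaged over libraries and domains. Ptprd was at 61.5% and 90.2%.

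Few genes lay inside domains. Of 47042 autosomal genes, 131 had at least 50% of their length in domains, and 64 of these were pseudogenes, 32 protein-coding and 24 lncRNA. The share was 0.72% of pseudogenes, 0.155% of protein-coding genes and 0.193% of lncRNA genes. Chemosensory receptor families supplied most of the protein-coding genes: 10 of 1104 olfactory receptor genes (0.906%), 3 of 354 vomeronasal receptor genes (0.847%) and 5 of 42 formyl peptide and bitter taste receptor genes (11.9%). Another 10 were among 1356 predicted or unnamed Gm and Rik genes (0.737%). The olfactory genes inside lay in a few stretches of chromosomes 2 and 7. In 24 h H3K9me3 regions of any length the 3 receptor shares were 6.70%, 4.80% and 40.5%, against 1.14% of all protein-coding genes. High shares of these families were thus not particular to long domains. Among the keratin and keratin-associated genes 3 of 147 were inside, and Ugt2b37 was the 1 of 43 UDP-glucuronosyltransferase and sulfotransferase genes. Inside domains were 0 of 422 Zfp zinc finger genes and 0 of 57 clustered protocadherin genes; at a share of 0.155% a count of 0 is near the background for groups of this size. Members of these families are close copies of each other, so reads could be split between them, and how multiply mapped reads were counted is not given in the sources used here.

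H3K9me3 covered most domain bases at 12 h and a variable part at 0 h. The 4 libraries at 0 h covered 31.4%, 79.8%, 70.1% and 56.8% of domain bases. The 4 at 12 h covered 84.2%, 84.9%, 86.5% and 88.9%, and the 4 at 24 h, which chose the domains, 89.8% to 95.1%. All 12 h libraries were above all 0 h libraries, and replicate 1 of 0 h was the lowest of all. The cover was higher at 12 h by 0.61 on a log2 scale (percent plus 0.1; exact permutation test, two-sided p = 0.0286, the smallest that 4 against 4 libraries allow). Without replicate 1 of 0 h the difference was 0.33. Choosing the domains at 24 h favours a rise in cover towards that time.

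Cover outside the domains also rose. The other autosomal bases had 0.708% to 4.51% cover in 0 h libraries and 6.62% to 8.13% in 12 h libraries. The ratio of domain to other cover lay between 17.7 and 44.3 in the libraries of 0 h and between 10.9 and 12.7 in those of 12 h. It fell by 1.17 on the log2 scale (exact permutation test, p = 0.0286), so the domains held a smaller part of the called bases at 12 h. With other cover of 6.62% or more, even full cover of the domains could not have given a 12 h library the ratio of 17.7. The separation was thus fixed by the cover outside the domains, and the p-value is no separate result about the domains. The cover and ratio differences both depended on list length. With equal numbers of peaks per list, taken by highest signal, the cover difference was -0.25 (exact permutation p = 0.143). The ratio difference was -0.018 (exact permutation p = 0.886), so neither direction is independent of how many peaks were called. Equal numbers of peaks need not cover equal numbers of bases. Over the whole lists, median peak length outside domains was 11.3 to 12.5 kb at 0 h and 6.4 to 7.5 kb at 12 h. Against only those 100 kb windows that had peaks in 50% or more of the lists, the ratio difference was -0.56 (exact permutation p = 0.0857). The tested lists were among those that chose these windows.

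**Figure D2:**
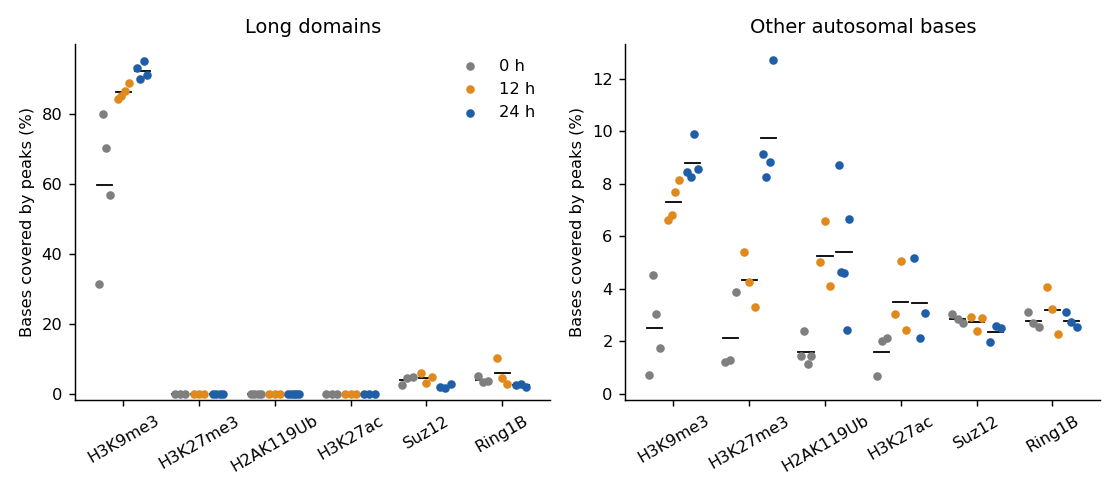
Percent of domain bases (left) and of the other autosomal bases (right) covered by peaks of each antibody, 1 point per library and a line at the mean of each time; the axes differ in scale. H3K9me3 lies between 31.4% and 95.1% in the domains, while H3K27me3, H2AK119Ub and H3K27ac lie at or near 0.

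A domain was counted as present at a time when at least 50% of its bases were covered in at least 3 of the 4 libraries. By this count 255 domains (55.4%) were present at 0 h and 454 (98.7%) at 12 h. None was present only at 0 h, 6 were present at neither time, and 3 had no peak in any 0 h library. Because the rule used 24 h, a stretch covered at 0 h but not at 24 h could not be a domain. Of the regions of 5 to 30 kb, 17.1% were present at 0 h and 76.8% at 12 h by the same count. Presence at 0 h was 42.3% among domains of 30 to 35 kb and 71.9% among those of 50 kb or longer. The count at 0 h moved with the threshold, to 84.8% of domains at 25% cover and 20.0% at 75%, and it was 29.3% with equal list lengths, where presence at 12 h was 20.7%.

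Tested domain by domain, 57 of 460 rose between 0 and 12 h and 0 fell (limma, Benjamini-Hochberg adjusted p under 0.05), which is 12.4%. Of all 12317 regions of 5 kb or longer tested, 31.6% rose, so the share of domains called was below the background. All these regions, domains included, were chosen by H3K9me3 at 24 h. A stretch that lost the mark by then could not be counted, which favours rises over falls. The median difference was 25.9 percentage points in domains and 46.9 over all regions tested. Cover cannot exceed 100%, and domains began higher. After each library was divided by its autosomal cover, 7 domains rose and 0 fell, against 17.5% and 0.00812% of regions, and the medians were -12.7 and 2.81. With 1 library left out, 19 (without replicate 1 of 0 h) to 135 domains (without replicate 2 of 0 h) rose. The 0 h libraries spread widely, and a domain that did not pass is not shown to be unchanged. In simulated data the fit called none of the smaller changes, which exceeded the median differences of 25.9 and 46.9 points. Fewer regions were changed in the simulation than were called in the data, so it does not set the size of change that the fit can call here. The domain at chr17:20028466-20074172, for example, was called with a difference of 26.1 points (limma adjusted p = 0.0459).

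**Figure D3:**
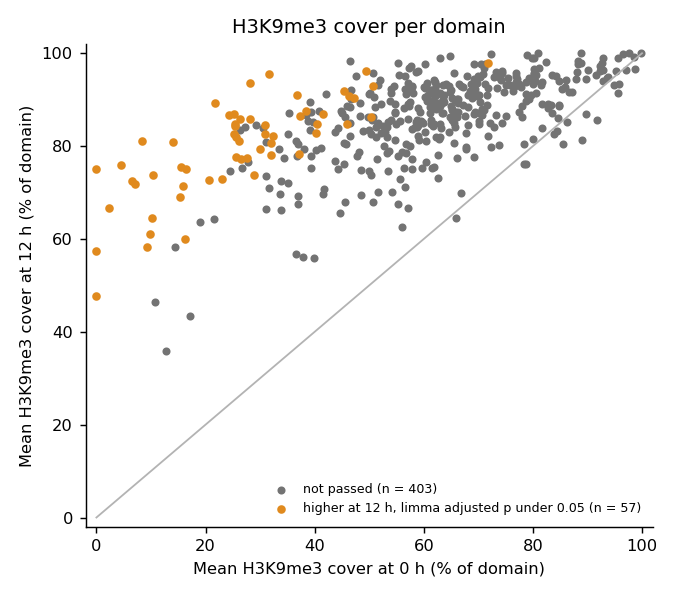
Mean H3K9me3 cover of each of the 460 domains at 0 h (horizontal) and 12 h (vertical), n = 4 libraries each, with the line of equal cover. The 57 domains that rose lie mostly at low cover at 0 h; most other points lie above the line too.

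The domains with the highest and lowest cover at 0 h show the range. The domain at chr1:147128538-147179027, 226 kb from Brinp3, was covered at 100%, 100%, 99.0% and 100% at 0 h and at 99.9% to 100% at 12 h. At the other end, the domain at chr5:127026467-127058643, 183 kb from Tmem132c, had 0 cover in all 4 libraries at 0 h and 70.8%, 84.7%, 73.2% and 71.7% at 12 h, and its groups did not overlap (difference 75.1 points, SE 8.81, limma adjusted p = 0.000282). A domain inside Egfem1 at chr3:29255616-29288658 was also at 0 in all 4 and then at 31.4%, 53.2%, 75.4% and 31.3% (difference 47.8, SE 12.0, adjusted p = 0.0192). A domain near the Pcdha1 end of the protocadherin cluster on chromosome 18 was at 0, 0, 18.3% and 0, and rose to between 66.4% and 93.2% at 12 h (adjusted p = 0.000889). All 5 domains lowest at 0 h passed the test, but they were picked by their 0 h values, which the contrast uses, so this is a description.

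Genes inside domains were tested with 2 kb added on each side. They too were chosen by H3K9me3 at 24 h, so a gene that lost the mark by then could not be among them. Of 56 protein-coding and lncRNA genes in domains, 55 were tested, 6 rose and 0 fell, against 58.8% of 1674 genes that rose overall. After division by autosomal cover, 2 rose and 0 fell, against 36.8% of 1678 genes. Olfr619 had 0 cover of its gene body in all 0 h libraries and full cover in all 4 at 12 h, and at 24 h it had full cover in 3 libraries and 0 in replicate 4 (12 h against 0 h, difference with flanks 89.9 points, SE 7.64, limma adjusted p = 0.000281). Olfr1109 was at 98.8% ± 2.47 (SD, n = 4) at 0 h and 98.2% ± 3.63 at 12 h over its gene body. The bitter taste receptor gene Tas2r102 was at 100% in all libraries of both times, and the vomeronasal receptor gene Vmn2r104 at 95.4% ± 6.77 and 100%. None of these 3 passed. Of the genes for H3K9 methyltransferases and partners, readers and silencing complexes, and demethylases, 10, 17 and 9 lie on autosomes. None lay in a domain. By H3K27ac over the 3 times, 6, 12 and 7 of them were tested and 0 passed in either direction, against 1.45% of 9323 genes that were higher at 24 h.

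H3K27me3, H2AK119Ub and H3K27ac peaks were all but absent from domains. H2AK119Ub covered 0 domain bases in all 12 libraries and H3K27ac 0 in all 9. H3K27me3 covered 0 in 8 of 10 libraries, and replicates 2 and 4 of 24 h covered 0.0358% and 0.0335%, in 1 domain each. The same libraries covered 0.668% to 12.7% of the other autosomal bases. Each of the 3 was below its level elsewhere in every library, with exact sign-flip tests giving adjusted p of 0.00586 for H3K27me3, 0.00293 for H2AK119Ub and 0.00781 for H3K27ac. With domain cover at or near 0, every library lay on the same side. The unadjusted p-values were therefore the smallest that 10, 12 and 9 libraries allow, and they do not measure the size of the deficit. The regions of 5 to 30 kb were also almost without these marks, at 0.0103% to 0.0717% for H2AK119Ub, 0 to 0.0182% for H3K27ac and 0.0107% to 0.0899% for H3K27me3. No fold is given because domain cover was 0, and a comparison of their ratio over times is void for the same reason. The median distance from a domain to the nearest peak, depending on the library, was 1237 to 2841 kb for H3K27ac, 821 to 1853 kb for H3K27me3 and 1194 to 2119 kb for H2AK119Ub. From the regions of 5 to 30 kb it was 981 to 2398, 605 to 1379 and 927 to 1756 kb.

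Suz12 and Ring1B, the Polycomb subunits, did cover a small part of the domains. Suz12 covered 2.52%, 4.42% and 4.66% at 0 h, 5.87%, 3.20% and 4.80% at 12 h, and 2.05%, 1.75% and 2.90% at 24 h. Ring1B covered 5.05%, 3.30% and 3.57% at 0 h, 10.2%, 4.59% and 2.87% at 12 h, and 2.48%, 2.72% and 1.92% at 24 h. Replicate 1 of 12 h was the highest Ring1B library, and its list was the shortest at 17885 peaks. Against the other autosomal bases the mean log2 ratio was 0.33 for Suz12 (higher in 7 of 9 libraries) and 0.32 for Ring1B (6 of 9), and neither passed (exact sign-flip test, adjusted p = 0.102 for both). The ratio depended on the setting. Against the 100 kb windows with peaks in 50% or more of the lists, the ratios were -0.80 and -0.85 (exact sign-flip test, adjusted p = 0.0117). These windows hold no domain and were chosen for having peaks, partly by the tested lists. That choice favours a negative ratio, so these values are no independent test. With domains required in all 4 libraries the ratios were 1.53 and 1.56 (exact sign-flip test, adjusted p = 0.00469).

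Over the 3 times, the ratio of Ring1B differed (exact permutation test, adjusted p = 0.0357 over 5 antibodies), and that of Suz12 did not pass (adjusted p = 0.175). The adjustment over 5 includes the 3 void tests; over Suz12 and Ring1B alone the Ring1B value was 0.0429. The Ring1B ratio lay between 1.22 and 1.62 at 0 h, between 1.26 and 2.50 at 12 h and between 0.756 and 0.996 at 24 h, so all 24 h libraries were below all others. In the regions of 5 to 30 kb mean Ring1B cover was 2.82%, 4.08% and 1.40% at 0, 12 and 24 h. Mean Suz12 cover there was 2.53%, 3.25% and 1.40%. Lower cover at 24 h was thus not particular to domains. The Ring1B call was lost under several other settings, among them either other pseudocount (exact permutation test, adjusted p = 0.0536 for both). Tested domain by domain, 0 of 228 domains changed for Suz12 and 0 of 199 for Ring1B (limma, adjusted p under 0.05; 2 and 5 at unadjusted p under 0.05), against 0.26% and 0% of all regions tested.

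The highest Suz12 and Ring1B cover was in a few domains. The domain at chr4:122544797-122622129 had Suz12 cover of 22.4% to 53.3% and Ring1B cover of 42.8% to 67.8% at 24 h, and its H3K9me3 cover at 0 h was 47.5% to 81.2%. The domain at chr10:33719365-33772505, which overlaps the sulfotransferase gene Sult3a2, had 39.7% to 57.9% Suz12 and 43.7% to 58.5% Ring1B at 24 h. The domain at chr6:59788730-59825990, 362 kb from Gprin3, had 37.7% to 68.4% Ring1B at 24 h, was at least 94.6% covered by H3K9me3 at 0 h, and was the domain with H3K27me3, at up to 17.6%. H3K9me3, Suz12 and Ring1B peaks lay in the same 3 domains, with no H2AK119Ub peak in any library. IgG libraries were not analysed here, so whether an unspecific antibody gives peaks at these domains was not tested.

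Domains present at 0 h differed in Suz12 and Ring1B cover from those not present. Mean Suz12 cover at 0 h was 4.53% in the 255 present and 2.28% in the 205 not present, and Ring1B cover was 4.57% and 2.49%. Median length was 38.2 and 34.2 kb. These are descriptions over domains that share libraries.

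Cover fell at the edge for H3K9me3, which the rule fixes at 24 h, but the flanks stayed rich in the mark. Between 150 and 200 kb outside, mean H3K9me3 cover was 18.1% at 0 h, 37.9% at 12 h and 42.3% at 24 h. Mean cover of all autosomal bases outside domains was 2.49%, 7.31% and 8.78%. At 0 h H3K9me3 covered 47.8% ± 20.7 (SD, n = 4) of the first 5 kb inside the edge and 14.2% ± 9.49 of the first 5 kb outside, and 22.0% ± 12.0 between 10 and 15 kb outside. Ring1B at 0 h covered 3.27% ± 0.644 (n = 3) of the first 5 kb inside, 0.996% ± 0.328 of the first 5 kb outside and 1.85% ± 0.302 between 10 and 15 kb outside. Suz12 gave 2.91% ± 0.928, 1.04% ± 0.43 and 1.95% ± 0.796. All 3 antibodies were lowest just outside the edge at 0 h; whether sequence that reads cannot be assigned to contributes there was not tested.

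**Figure D4:**
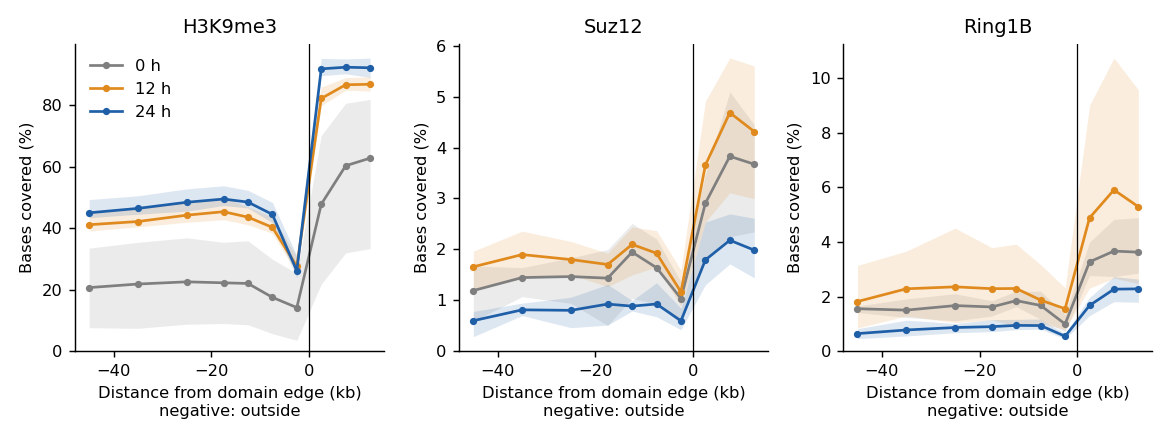
Percent of bases covered by H3K9me3, Suz12 and Ring1B peaks against distance from the domain edge in kb (negative is outside), as the mean of the libraries of each time with the range shaded. Cover dips in the 5 kb outside the edge and is higher inside at all 3 times; the vertical axes differ.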

How the data were processed

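The authors deposited 1 peak list per library with 6 columns and no header: chromosome, start, end, total signal, highest signal and its position. The signal columns were used only to rank peaks. The names of the lists give SEACR's norm relaxed setting (histone marks) or its non, 0.01, stringent setting (Suz12, Ring1B); the latter keeps a fixed top share, so list length does not measure occupancy. Tools in the submitters' processing notes are Bowtie2 2.3.4.1, deepTools 3.5.1, Picard and Trimmomatic 0.32, with build mm10. SEACR's version and how alleles were split: not given in the sources used here. Of 64 samples, 61 had a list; the 3 IgG samples were not analysed here. Sample titles spell H3K9me3 as H3K29me3, and the antibody label was followed.

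Cover is the percent of bases in peaks. Log2 ratios add 0.1 to each percent. Tests were exact permutation and sign-flip tests over libraries, and limma 3.58.1 (R 4.3.3, trend and robust) on cover per region of 5 kb or longer with a peak in at least 3 libraries, Benjamini-Hochberg adjusted over all regions. Scripts were tested on simulated data; in these tests the limma fit called no change of moderate size and only part of the large ones, and the cause was not tested; the size of change simulated and the pass mark were altered after the first run failed. Named domains were the 10 longest, the 5 highest and 5 lowest at 0 h, and the 2 highest for each other antibody; named genes were those with most bases in them, and the 2 highest at 0 h of each class. Olfr619, Sgo2b, Ano5, host genes, groups of domains and the edge profile were chosen after their values were seen. Members and lists were chosen with earlier results of these data known. Deviations of same-numbered H3K9me3 libraries of 0 and 12 h correlated at -0.01 to 0.03, so the numbers were not taken to pair them. Only for H3K27me3 at 12 and 24 h did every same-numbered pair exceed 0.1 (0.22 to 0.28), and no result rests on that pair of times. Where the labels do not say that replicates came from separate mice, p-values measure the spread between libraries, which may be technical.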

Additional observations from a re-analysis of the deposited data

Results flagged for a closer look

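In 52 groups of 4 or more libraries, 10 had 1 library far from the others by Dixon's gap rule; chance flags about 1 in 20. All 10 were single domains. In 6 domains the low library at 0 h was 82.6% (chr6:59933352-60033027), 29.6% (chr1:109532723-109613392), 99.0% (chr1:147128538-147179027), 95.2% (chr6:60472203-60504688), 94.6% (chr6:59788730-59825990) and 90.2% (chr14:108451505-108512790). At 12 h the low library was 96.1% in chr6:60472203-60504688 and 99.8% in that on chromosome 14. The high library at 0 h was 9.26% in a domain on chromosome 4 and 18.3% in that beside Pcdha1. Several of these gaps are small because the other libraries are near 100% or at 0.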

How the results depend on the processing

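The number of domains, 460, was 96 with 4 of 4 libraries, 1183 with 2 of 4, 280 merging within 1 kb, 1283 within 5 kb, 1490 from 20 kb and 64 from 50 kb; with 1 library of 24 h left out and 2 of the others required it was 666 to 811. Presence at 0 h was 84.8% of domains at 25% cover, 20.0% at 75%, 85.4% for domains from 4 of 4 libraries, 36.1% with stricter peaks and 29.3% with equal list lengths, and presence at 12 h was 20.7% with equal list lengths. The last 3 settings for 0 h, and that for 12 h, were chosen after seeing the data. Leaving out a library gave 19.1% to 51.5% at 0 h where all 3 remaining libraries were required, up to 81.7% where 2 of 3 were (chosen after seeing the data), and 95.2% to 99.3% at 12 h.

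The H3K9me3 cover difference between 12 and 0 h was 0.33 to 0.78 with 1 library left out (exact permutation p = 0.0286 to 0.0857) and reversed to -0.25 with equal list lengths. The ratio difference was -1.37 to -0.98 with 1 library left out, -0.018 with equal list lengths and -0.56 against the 100 kb windows. In the replicate block the cover and ratio differences were 0.61 and -1.17 with an exact p = 0.125, the smallest that 4 pairs allow. The domains that rose numbered 7 after scaling, 37 with no filter, 18 with the replicate block and 19 to 135 with 1 library left out, the highest without replicate 2 of 0 h.

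For Suz12 and Ring1B against the other bases, the ratio was 1.53 and 1.56 with domains from 4 of 4 libraries. With domains of 50 kb or longer it was 1.03 and 1.06. Against the 100 kb windows, chosen partly by these same lists for having peaks, it reversed to -0.80 and -0.85. Leaving out a library gave 0.24 to 0.43 and 0.19 to 0.40. The Ring1B test over 3 times lost its call under the settings that follow, given by the difference between 24 and 0 h, which was -0.71 and did not itself pass (exact p = 0.1): -0.45 with domains from 4 of 4 libraries, -0.9997 with stricter peaks, -0.86 with equal list lengths, -0.73 and -0.55 with pseudocounts of 0.01 and 1, -0.96 against the 100 kb windows and -0.71 with the replicate block (exact p = 0.0556). Leaving out a library gave -0.83 to -0.61, and the call held in 3 of 9. Suz12 over times gave -0.78 to -0.25 with a library left out. The ratios of H3K9me3, H3K27me3, H2AK119Ub and H3K27ac to the other bases kept direction and call under every alternative run. That of H3K9me3 was 3.96 to 4.23 with a library left out. The rule chose the domains by this mark, so the direction of its ratio is not an independent result. For the other 3 the size is set by the pseudocount and is not given. No domain changed for Suz12 or Ring1B per region under any alternative run (0 in each). The cause of these changes was not tested.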
